A study of Mus musculus with 8 samples.

Results

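YAP and TAZ, encoded by Yap1 and Wwtr1, and 8 of their best known target genes were followed in MC3T3-E1, a long-established pre-osteoblast line from mouse calvaria. The genes were chosen by name, with earlier results of these data known. They are the coactivators Yap1 and Wwtr1, and the targets Ccn1 (formerly Cyr61), Ccn2 (formerly Ctgf), Ankrd1, Amotl2, Axl, Lats2, Ajuba and Thbs1. All 10 were found among the 55335 gene identifiers of the deposited table. The lists of related genes read below were chosen with the same knowledge, so their counts are a description. Cells were kept for 3 days on 1 of 2 scaffolds: TABS, named Trio-Active bone scaffold by the submitters (n = 4 libraries), and HA, a hydroxyapatite scaffold doped with magnesium (n = 4). The sources used here do not give the make-up of TABS. No library came from cells without a scaffold, so a gene higher in TABS may equally be lower on HA. MC3T3-E1 is 1 line, and the labels do not state that libraries of 1 group are separate cultures. The p-values thus rest on a spread between libraries that may be technical.

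YAP and TAZ are transcriptional coactivators that enter the nucleus when cells spread on stiff matrix or build tension on their actin fibres, and there bind DNA through the TEAD factors. The Hippo kinases hold them in the cytoplasm by phosphorylation, with LATS1 and LATS2 as the last kinases of that chain. Several targets feed back on the pathway (Lats2, Amotl2, Ajuba) and others are secreted or sit at the cell surface (Ccn1, Ccn2, Thbs1, Axl). In cells of the bone lineage YAP and TAZ are known as sensors of matrix stiffness, and TAZ as a partner of the osteoblast factor RUNX2.

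The DNA that TEAD factors recognise is short, and the promoters of these genes were read for it. Since the targets are known as YAP and TAZ targets, a TEAD motif is not independent of their choice. RefSeq promoter windows (GRCm38.p6, from 250 bases before to 50 after each annotated start) matched 8 of the 10 genes. Ccn2 and Thbs1 were not matched. The TEAD core motif GGAATG, or CATTCC on the other strand, stood in the windows of all 8 matched genes, and in 9 of their 10 windows, since Lats2 and Wwtr1 each have more than 1 annotated start. The same letters stood in 14.7% of all 32851 windows. By gene, they stood in 16.6% of all genes, in 2 of 10 matched genes of a list of other known targets, in 4 of 6 TEAD and VGLL genes and in 4 of 7 junction and LIM genes, a list that shares Amotl2 and Ajuba. The AP-1 motif, searched as TGACTCA and TGAGTCA, was in none of the 10 windows and in 5.20% of all windows, and the CArG box of SRF was in none and in 1.63%. A match of letters is a description and does not show that a factor binds there. The sequences below are the motifs (capitals) with 10 bases on each side, turned so that each reads GGAATG 5′ to 3′.

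Yap1 (chr9:8004722-8004747, minus strand): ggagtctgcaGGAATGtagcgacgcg
Wwtr1 (chr3:57576031-57576056, minus strand): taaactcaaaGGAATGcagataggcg
Ccn1 (chr3:145650073-145650098, plus strand): aaacatctcaGGAATGttggttggcg
Ankrd1 (chr19:36120039-36120064, minus strand): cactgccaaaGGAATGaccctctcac
Ankrd1 (chr19:36119952-36119977, minus strand): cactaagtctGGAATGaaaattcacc
Amotl2 (chr9:102717729-102717754, minus strand): tgctatgccaGGAATGtgagagtttc
Axl (chr7:25788951-25788976, minus strand): aaattctacaGGAATGtttaccagac
Lats2 (chr14:57746104-57746129, minus strand): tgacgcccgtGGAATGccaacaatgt
Ajuba (chr14:54577832-54577857, plus strand): ggggcactgtGGAATGtatccatcaa
Ajuba (chr14:54577810-54577835, plus strand): gtttacagttGGAATGcgcggagggg

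**Figure D1:**
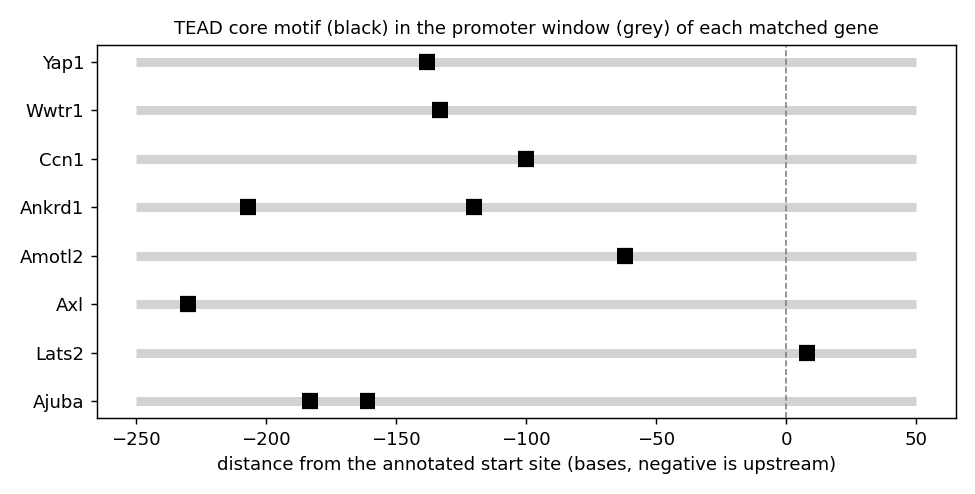
Distance of the TEAD core motif (black) from the annotated start site in bases for the 8 matched genes, with the promoter window in grey and the start at the dashed line. Ankrd1 and Ajuba hold 2 motifs each, and Lats2 holds its motif at base 5 after the start.

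Counted from the start in each gene's first RefSeq window, the motif began 141 bases upstream in Yap1, 136 in Wwtr1, 103 in Ccn1, 65 in Amotl2 and 233 in Axl. Ankrd1 held motifs at 210 and 123 bases upstream and Ajuba at 186 and 164. The gene spans given below come from GENCODE and begin further upstream for Ankrd1, Amotl2 and Lats2. The motifs of these genes lie inside those spans. The whole windows of Ccn1 and Axl are printed next, with the motif in capitals, because these were the targets that differed between the scaffolds by the test below, in opposite directions.

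Ccn1 (chr3:145649936-145650235, minus strand): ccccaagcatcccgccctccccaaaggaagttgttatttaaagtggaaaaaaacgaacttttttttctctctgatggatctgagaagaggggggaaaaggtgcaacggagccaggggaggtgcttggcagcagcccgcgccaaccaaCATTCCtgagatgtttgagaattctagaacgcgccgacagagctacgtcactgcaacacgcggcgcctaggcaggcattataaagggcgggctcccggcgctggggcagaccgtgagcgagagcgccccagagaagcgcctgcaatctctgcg
Axl (chr7:25788684-25788983, minus strand): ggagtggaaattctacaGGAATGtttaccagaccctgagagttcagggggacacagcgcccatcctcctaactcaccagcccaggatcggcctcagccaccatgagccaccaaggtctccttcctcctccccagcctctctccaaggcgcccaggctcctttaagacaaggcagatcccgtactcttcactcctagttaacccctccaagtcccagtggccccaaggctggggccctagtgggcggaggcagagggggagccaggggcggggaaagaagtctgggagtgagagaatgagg

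Transcript levels were read as FPKM (fragments per kilobase of transcript, scaled to the depth of the library), which allows levels to be set side by side between genes. Column totals ran from 304893 to 307263 FPKM in TABS and from 312629 to 317439 in HA, and 11187 to 11357 genes per library reached 1 FPKM. Read totals were not in the table. Low FPKM of single-exon genes gathered at regular steps which, if 1 step is 1 fragment, put 18.4 to 25.8 fragments behind 1 FPKM in a transcript of 1 kilobase, but only 12.4% to 17.5% of these values lay within 0.02 of a whole number of steps. No interval that needs counts is therefore given. The osteoblast lineage markers Runx2, Sp7, Col1a1, Col1a2, Ibsp and Spp1 were at 10.6 FPKM or more in every library, and Alpl and Bglap were low (0.37 to 1.80 and 0.97 to 2.06 FPKM). The summed level of 5 markers each was 0.182 to 0.372 FPKM for endothelial and 0.078 to 0.184 for epithelial cells. For skeletal muscle the sum was 0.459 to 0.554 FPKM in TABS and 0.646 to 0.880 in HA. Of 5 adipocyte markers, Fabp4 was at 2.61 to 3.38 FPKM, and Adipoq, Plin1, Lep and Cidec were at most 0.0341 in any library. Of 5 macrophage markers, Ptprc, Adgre1, Cd68 and Csf1r were at most 0.35 FPKM in any library, and Lyz2 was at 10.7 to 15.9 FPKM in TABS and 17.6 to 19.8 in HA. Among chondrocyte markers Acan, Col9a1 and Matn3 were at or near 0, and Sox9 (33.1 to 37.6 FPKM) was present. Col2a1 was at 5.33 to 5.79 FPKM in TABS and 3.82 to 4.96 in HA. In such bulk RNA fewer cells of a type and less RNA per cell cannot be told apart.

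Changes between scaffolds were tested with limma on log2(FPKM + 1) over the 11280 genes that reached 1 FPKM in at least 4 libraries. The fold changes given are TABS minus HA on this scale, with the SE after the sign ±, and for genes near 1 FPKM they come out smaller than the ratio of FPKM. The pass mark was a Benjamini-Hochberg adjusted p under 0.05 over all tested genes. Of the genes tested, 7.38% passed, 4.49% higher and 2.90% lower in TABS (506 and 327 genes), and after rescaling to TPM the split was 915 and 239 (8.11% and 2.12%). Of the 8 osteoblast lineage markers, Spp1 rose on TABS (log2 fold change 0.45). Ibsp (-1.73), Alpl (-0.68), Sp7 (-0.49) and Col1a1 (-0.39) fell, and the other 3 did not pass. With no filter on low FPKM, Ibsp, Alpl and Sp7 still passed, and Spp1 (limma adjusted p = 0.164) and Col1a1 (0.107) did not. The chondrocyte marker Col2a1 rose (0.29, limma adjusted p = 0.0393, and 0.098 with no filter on low FPKM), and Sox9 did not pass. Among the 10 genes of the YAP and TAZ set, 9 were tested. Ccn1 fell on TABS and Axl rose, while the coactivators and the remaining 5 tested targets did not pass. Ankrd1 was below the filter in all libraries. Both groups of libraries kept apart, with no overlap in FPKM, in Ccn1, Amotl2 and Ankrd1 (TABS lower) and in Ccn2 and Axl (TABS higher). Among all tested genes, 18.0% kept apart in this way, 7.15% with TABS lower and 10.8% with TABS higher. Ankrd1, not being tested, is outside these shares. Of the 7 tested targets, 2 kept apart with TABS lower and 2 with TABS higher.

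**Figure D2:**
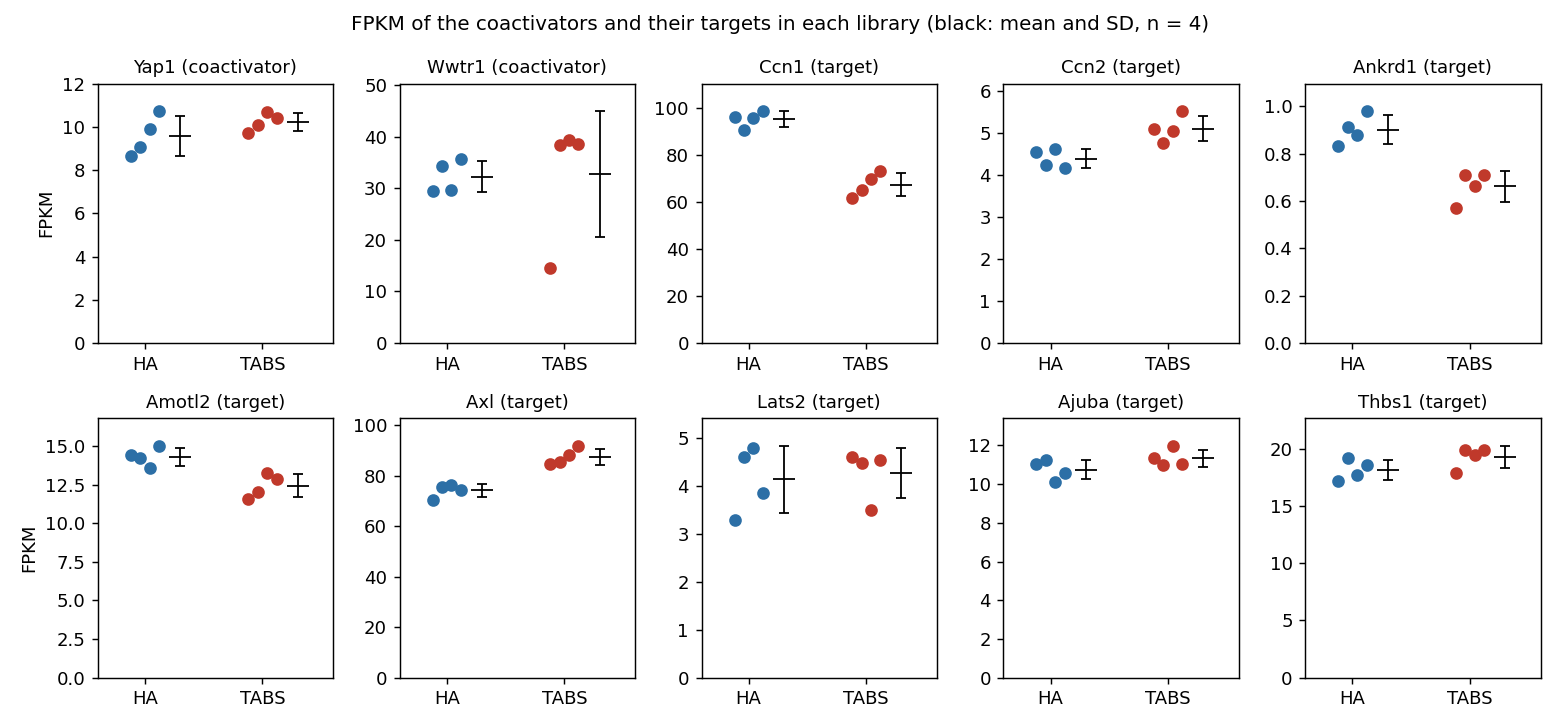
FPKM (linear axes from 0) of the 2 coactivators and 8 targets in each HA library (blue) and TABS library (red), with the mean and SD of each group in black (n = 4). Ccn1, Ankrd1 and Amotl2 are lower in every TABS library than in any HA library, Ccn2 and Axl are higher, and Wwtr1 in TABS 1 stands alone at 14.5 FPKM.

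Yap1 (ENSMUSG00000053110, GRCm38 chromosome 9, 7931999 to 8004596, minus strand) encodes YAP. It stood at 9.71, 10.1, 10.7 and 10.4 FPKM in TABS 1 to 4 and at 8.68, 9.07, 9.92 and 10.7 in HA 1 to 4. The groups overlapped, with the lowest and the highest values both in HA. The mean was 10.2 ± 0.42 FPKM on TABS against 9.60 ± 0.92 on HA (SD, n = 4). The log2 fold change was 0.09 with an SE of 0.06 (limma adjusted p = 0.448).

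Wwtr1 (ENSMUSG00000027803, chromosome 3, 57455649 to 57575910, minus strand) encodes TAZ, the paralog of YAP. It stood at 14.5, 38.5, 39.5 and 38.6 FPKM in TABS 1 to 4 and at 29.6, 34.3, 29.7 and 35.6 in HA 1 to 4. In 3 TABS libraries Wwtr1 was above every HA library, and in TABS 1 it was below every other library by a wide gap. With all libraries the mean was 32.8 ± 12.2 FPKM on TABS against 32.3 ± 3.10 on HA (SD, n = 4, log2 fold change -0.08 ± 0.28, limma adjusted p = 0.904). Without TABS 1 the sign turned, to 0.26 ± 0.07, and the adjusted p was 0.0909, in a fit in which 2.32% of genes were higher. A single library so far below the rest was rare. In 96 of the 11280 tested genes (0.851%) 1 library lay at or below 0.5 times the lowest of the other 7. TABS 1 was that library in 12 of them. This count can miss genes with more than 1 low library, such as Mob1a below. What set the value of Wwtr1 in TABS 1 was not tested, and results that rest on it are given with and without that library.

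Wwtr1 was the more abundant of the coactivators per length. The ratio of Wwtr1 to Yap1 FPKM was 3.81, 3.69 and 3.71 in TABS 2, 3 and 4, 1.49 in TABS 1, and 3.00 to 3.78 over the HA libraries.

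Ccn1 and Ccn2 are secreted matricellular proteins of the CCN family, which bind integrins and are the target genes most often read as a measure of YAP and TAZ activity. Ccn1 (ENSMUSG00000028195, chromosome 3, 145646976 to 145649981, minus strand) stood at 61.6, 65.3, 70.0 and 73.0 FPKM in TABS 1 to 4 and at 96.3, 90.9, 95.8 and 98.6 in HA 1 to 4. Every TABS library was below every HA library, and the gap between the groups was wider than the range within either. Ccn1 fell by 29.3% on TABS, from 95.4 ± 3.24 to 67.5 ± 5.06 FPKM (SD, n = 4, log2 fold change -0.50 ± 0.06, limma adjusted p = 0.00169). It passed under all 16 alternative settings (adjusted p up to 0.0145).

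Ccn2 (ENSMUSG00000019997, chromosome 10, 24595442 to 24598683, plus strand) stood at 5.10, 4.77, 5.06 and 5.52 FPKM in TABS 1 to 4 and at 4.54, 4.25, 4.62 and 4.16 in HA 1 to 4. Here every TABS library was above every HA library, by a narrow gap. The mean was 5.11 ± 0.31 FPKM on TABS against 4.39 ± 0.22 on HA (SD, n = 4, log2 fold change 0.18 ± 0.05), which did not pass (limma adjusted p = 0.0707) unless FPKM were rescaled to TPM (0.24, adjusted p = 0.0294). Exons of Ccn2 share 665 of 2861 bases with Gm15270 on the opposite strand (0.137 to 0.523 FPKM), and whether counting used strand is not stated.

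The balance between these CCN genes differed by scaffold. Ccn1 FPKM was 12.1 to 13.8 times that of Ccn2 in the TABS libraries and 20.7 to 23.7 times in the HA libraries. This ratio was chosen after the values were seen and is given as a description. Of the 6 CCN genes, 5 were tested, with 1 higher and 1 lower, against 4.49% and 2.90% of all tested genes. Besides Ccn1, Ccn5 (formerly Wisp2), a CCN protein that lacks the C-terminal domain of the others, was the other gene to pass: it rose from 34.7 ± 2.58 to 42.7 ± 3.62 FPKM (SD, n = 4, log2 fold change 0.29 ± 0.07, limma adjusted p = 0.0422). TABS 4 was the 1 library that could be left out with the call kept (adjusted p up to 0.104 without another). The call was also lost with no filter (0.107) and with median-of-ratios scaling (0.0513).

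Ankrd1 (ENSMUSG00000024803, chromosome 19, 36111961 to 36120099, minus strand) encodes a nuclear ankyrin-repeat protein of stretched muscle and is the other classical reporter of YAP activity. Its level was low, at 0.57, 0.71, 0.66 and 0.71 FPKM in TABS 1 to 4 and 0.83, 0.91, 0.88 and 0.98 in HA 1 to 4. All TABS libraries were below all HA libraries. Since no library reached 1 FPKM, it was tested only in the fit with no filter on low FPKM, over 28201 genes of which 1.92% passed (0.691% lower), and it did not pass there (log2 fold change -0.19 ± 0.05, limma adjusted p = 0.109).

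Axl (ENSMUSG00000002602, chromosome 7, 25757273 to 25788705, minus strand) encodes a receptor tyrosine kinase of the TAM family, whose ligands are GAS6 and protein S. It stood at 84.8, 85.6, 88.2 and 91.8 FPKM in TABS 1 to 4 and at 70.6, 75.7, 76.5 and 74.3 in HA 1 to 4. Every TABS library was above every HA library. Axl rose by 17.9% on TABS, from 74.3 ± 2.62 to 87.6 ± 3.15 FPKM (SD, n = 4, log2 fold change 0.23 ± 0.04, limma adjusted p = 0.0138). It passed under 14 of 16 alternatives, all but those with the replicate number as a block. Axl and Ccn1 were the most abundant of the 10 genes, and they changed places: Ccn1 was the higher in every HA library and Axl in every TABS library.

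Of the 5 genes of the TAM receptors and their ligands, Axl alone rose and 2 fell. Over all tested genes 4.49% were higher and 2.90% lower. Mertk, a related receptor that clears dying cells, fell from 29.3 ± 0.86 to 23.8 ± 0.34 FPKM (SD, n = 4, log2 fold change -0.29 ± 0.04, limma adjusted p = 0.00248) and passed under all 16 alternatives. Pros1, the gene of protein S, fell from 14.6 ± 0.60 to 12.4 ± 0.74 FPKM (-0.22 ± 0.05, adjusted p = 0.0338). This call held without TABS 3 and was lost without any other 1 library (adjusted p up to 0.0786), with no filter (0.0685), after rescaling to TPM (0.0604) and with GC and length correction (0.0958). Gas6, named after its values were seen, was abundant, at 347 ± 19.7 FPKM on TABS against 395 ± 17.5 on HA, and did not pass (adjusted p = 0.0751), though all TABS libraries were below all HA libraries. Tyro3, the third receptor of the family, overlapped between the groups (6.35 to 6.66 and 6.12 to 7.29 FPKM, adjusted p = 0.79). In the description by library, Axl FPKM was 3.53 to 3.92 times that of Mertk in TABS and 2.37 to 2.68 times in HA, a ratio chosen after the values were seen. Mertk is also a macrophage receptor. The summed level of the 5 macrophage markers was 11.2 to 16.3 FPKM in TABS and 17.9 to 20.1 in HA, nearly all of it Lyz2. Lyz2, the 1 tested marker, fell (-0.46, limma adjusted p = 0.0293), and did not pass with no filter (0.0893). Of the others, Ptprc was at most 0.0104 FPKM, Adgre1 at most 0.03045, Csf1r 0.0488 to 0.136 and Cd68 0.173 to 0.346, with both ends of the last 2 ranges in TABS. Their part in the change of Mertk was not tested.

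**Figure D3:**
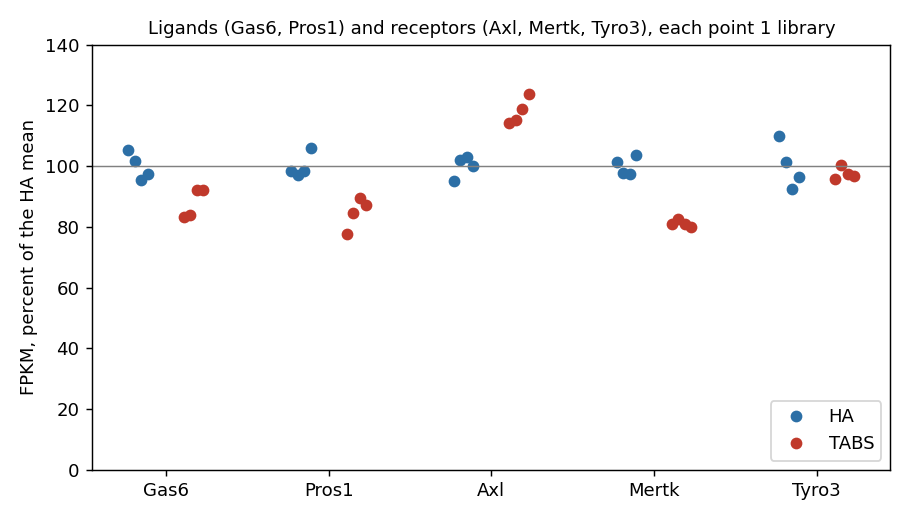
FPKM of the ligands Gas6 and Pros1 and of the receptors Axl, Mertk and Tyro3 in each library, as a percent of the mean of the HA libraries of the same gene (HA blue, TABS red). Axl lies at 114% to 124% in TABS, Mertk at 79.8% to 82.6%.

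Amotl2, Lats2 and Ajuba are targets that act back on the Hippo pathway. Amotl2 (ENSMUSG00000032531, chromosome 9, 102716672 to 102733418, plus strand) encodes a motin that holds YAP at junctions and actin. It stood at 11.6, 12.04, 13.2 and 12.9 FPKM in TABS 1 to 4 and at 14.4, 14.2, 13.6 and 15.0 in HA 1 to 4. Every TABS library was below every HA library, with TABS 3 and HA 3 close together. The mean was 12.4 ± 0.76 FPKM on TABS against 14.3 ± 0.59 on HA (SD, n = 4, log2 fold change -0.19 ± 0.05), just short of the pass mark (limma adjusted p = 0.0589). It passed with a filter of 5 FPKM (adjusted p = 0.0484, with 3.69% of genes lower) and after correction for GC content and length (-0.26, adjusted p = 0.0183, with 4.01% lower).

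Lats2 (ENSMUSG00000021959, chromosome 14, 57689662 to 57758388, minus strand) encodes the kinase that phosphorylates YAP and TAZ. It stood at 4.60, 4.48, 3.50 and 4.54 FPKM in TABS 1 to 4 and at 3.29, 4.61, 4.79 and 3.86 in HA 1 to 4. The groups overlapped, and HA 1 and TABS 3 were the lowest libraries. The log2 fold change was 0.04 ± 0.11 (limma adjusted p = 0.849), with the sign turned without HA 1 (-0.04). Exons of Lats2 share 2955 of 6971 bases with Gm49361 on the same strand, which was listed at 0 in every library, so the level of Lats2 is uncertain.

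Ajuba (ENSMUSG00000022178, chromosome 14, 54567472 to 54577558, minus strand) encodes a LIM protein that binds and inhibits LATS kinases under tension. It stood at 11.3, 10.99, 11.96 and 11.1 FPKM in TABS 1 to 4 and at 11.03, 11.2, 10.1 and 10.6 in HA 1 to 4. The groups overlapped (log2 fold change 0.07 ± 0.05, limma adjusted p = 0.383).

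Thbs1 (ENSMUSG00000040152, chromosome 2, 118111876 to 118127133, plus strand) encodes thrombospondin 1, a secreted matrix glycoprotein that activates latent TGF-beta. It stood at 17.9, 19.9, 19.4 and 19.9 FPKM in TABS 1 to 4 and at 17.2, 19.2, 17.7 and 18.6 in HA 1 to 4. TABS 1 lay among the HA libraries and HA 2 came close to the TABS libraries (log2 fold change 0.08 ± 0.05, limma adjusted p = 0.367). Of 3 tested thrombospondin genes 0 passed in limma (1 higher and 0 lower at an unadjusted p under 0.05, against 13.2% and 10.8% of all tested genes). Thbs2 came nearest, at 69.3 ± 1.33 FPKM on TABS against 63.1 ± 2.63 on HA (SD, n = 4, log2 fold change 0.13 ± 0.04, adjusted p = 0.0868), and passed after rescaling to TPM (0.17, adjusted p = 0.0411).

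**Figure D4:**
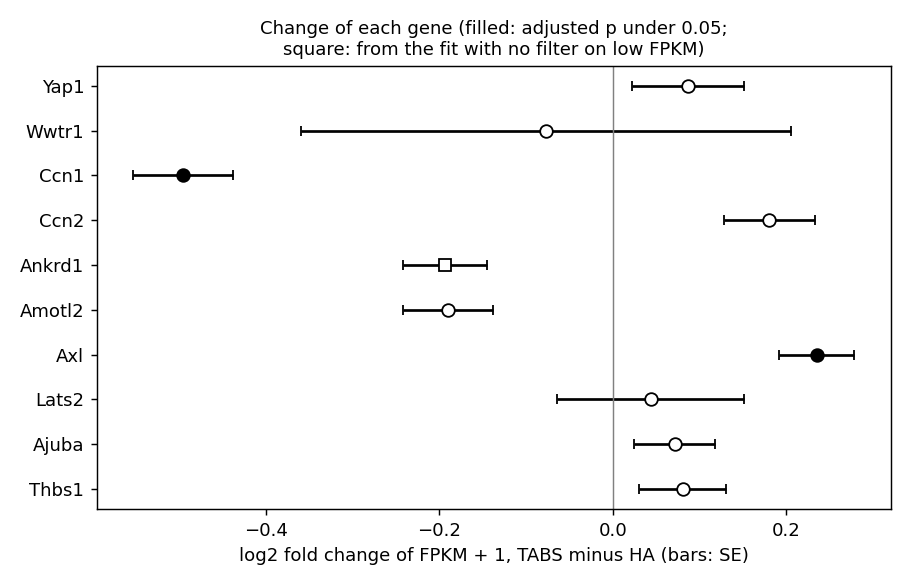
Log2 fold change of FPKM + 1 (TABS minus HA) of each gene, with SE bars, where filled points passed at an adjusted p under 0.05. Ccn1 lies at -0.50 and Axl at 0.23, the coactivators Yap1 and Wwtr1 lie near 0 with a wide bar for Wwtr1, and the square for Ankrd1 comes from the fit with no filter on low FPKM.

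Set in order of level in HA, the genes ran Ccn1, Axl, Wwtr1, Thbs1, Amotl2, Ajuba, Yap1, Ccn2, Lats2 and Ankrd1 (means of 95.4, 74.3, 32.3, 18.2, 14.3, 10.7, 9.60, 4.39, 4.14 and 0.90 FPKM). In HA the ranges of the neighbours Ajuba and Yap1 overlapped, as did those of Ccn2 and Lats2. In TABS, Axl took the first place (87.6 FPKM) before Ccn1 (67.5). There Amotl2 and Ajuba overlapped, while Yap1 lay below Ajuba in every library. Wwtr1 lay below Thbs1 in TABS 1 (14.5 against 17.9 FPKM) and above it in the other 3, so that these neighbours overlapped with TABS 1 and were apart without it.

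The targets were then set against the coactivators within each library. For this, the mean log2(FPKM + 1) of Yap1 and Wwtr1 was subtracted from every gene before the fit, so that a fold change of 0 means a gene that moved as the coactivators did. None of the 7 tested targets passed (0 higher and 1 lower at an unadjusted p under 0.05 in limma, against 1.03% and 1.05% of all genes), in a fit in which 0.266% of all genes passed, 0.0975% higher and 0.168% lower. The SE was 0.22 for Ccn1 (log2 fold change -0.50, limma adjusted p = 1.0) against 0.06 in the direct comparison. The low Wwtr1 value of TABS 1 enters every gene in this fit. Without TABS 1, Ccn1 (-0.64 ± 0.09, adjusted p = 0.00684) and Amotl2 (-0.34 ± 0.08, adjusted p = 0.0182) were lower relative to the coactivators. In that fit 21.2% of all genes passed, 20.8% lower and 0.363% higher, so the 2 targets among 7 stand beside a large share of the table. Axl was then at 0.06 ± 0.08 (adjusted p = 0.545), and the signs of Ccn2 (-0.01), Lats2 (-0.17), Ajuba (-0.12) and Thbs1 (-0.07) turned. Relative to Yap1 alone, a reference chosen after the values were seen, Ccn1 was lower (-0.58 ± 0.08, adjusted p = 0.00359) and no other target passed, where 2.69% of all genes passed, 2.26% lower and 0.426% higher.

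The TEAD factors are the DNA-binding partners of YAP and TAZ, and the VGLL proteins compete for or share that surface. Of 8 such genes 5 were tested, and 2 rose while 0 fell, with 4.49% of all tested genes higher and 2.90% lower. The median log2 fold change was 0.11, against 0.01 over all tested genes. At an unadjusted p under 0.05 in limma, 3 were higher and 1 lower, against 13.2% and 10.8% of all tested genes. Tead4 rose from 11.5 ± 0.35 to 14.2 ± 0.36 FPKM (SD, n = 4, log2 fold change 0.29 ± 0.04, limma adjusted p = 0.00347) and Tead2 from 5.34 ± 0.16 to 6.66 ± 0.38 (0.27 ± 0.05, adjusted p = 0.0111). All TABS libraries were above all HA libraries in both, and both passed with any 1 library left out. Tead3 did not pass (0.04). Vgll3, named after its values were seen, lay the other way: it was at 9.62 to 11.5 FPKM in TABS and 11.6 to 13.9 in HA, with no overlap, and did not pass (-0.25 ± 0.07, adjusted p = 0.053). Tead1 stood below 1 FPKM in 7 of 8 libraries, and Vgll1 and Vgll2 were listed at 0 throughout.

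Among the kinases, scaffolds and membrane proteins that restrain YAP and TAZ, 15 of 17 genes were tested, Lats2 among them. The median was 0.04, against 0.01 over all tested genes, of which 4.49% were higher and 2.90% lower. In this list 1 gene was higher and 0 lower. It was Taok3, a kinase upstream of the Hippo kinases, which rose from 3.28 ± 0.16 to 3.91 ± 0.12 FPKM (SD, n = 4, log2 fold change 0.20 ± 0.05, limma adjusted p = 0.0359). The call was lost with no filter (0.0653), with GC and length correction (0.0743) and without any 1 library but HA 4 (adjusted p up to 0.0952). In limma, 3 genes of this list were higher and 2 lower at an unadjusted p under 0.05. The shares of all tested genes were 13.2% and 10.8%. Named after their values were seen, Stk3 (-0.23, adjusted p = 0.0583) and Sav1 (-0.16, 0.108) were lower without passing. Map4k4 (0.17, 0.0526) and Nf2 (0.13, 0.138) were higher without passing. Mob1a, the LATS cofactor, was named after its values were seen: it stood at 37.5 to 41.5 FPKM in 6 libraries, at 6.38 in TABS 2 and at 11.6 in HA 4, isolated low values like that of Wwtr1 but in other libraries.

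Among junction and LIM proteins that bind YAP, TAZ or LATS, 2 of 10 tested genes rose and 0 fell. The median was 0.10, against 0.01 over all tested genes, of which 4.49% were higher and 2.90% lower. The list shares Amotl2 and Ajuba with the targets above, and Amotl2 was lower in TABS without passing (limma adjusted p = 0.0589). Amotl1, another motin, rose from 14.6 ± 0.64 to 18.0 ± 0.26 FPKM (SD, n = 4, log2 fold change 0.28 ± 0.04, limma adjusted p = 0.00509), and passed with any 1 library left out.

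Further genes widely listed as targets of YAP and TAZ in other cells were read in the same way. YAP and TAZ activity was not measured. The list was chosen with earlier results of these data known, so its counts are a description. Of 16 such genes 14 were tested, and 3 rose while 0 fell, with 4.49% of all tested genes higher (median 0.15, against 0.01 over all tested genes). At an unadjusted p under 0.05, 8 of the 14 were higher and 1 lower in limma, against 13.2% and 10.8% of all tested genes. Nt5e, the ectonucleotidase CD73, rose from 4.97 ± 0.55 to 6.94 ± 0.39 FPKM (SD, n = 4, log2 fold change 0.42 ± 0.07, limma adjusted p = 0.00854), and passed with any 1 library left out. Dock5, an exchange factor for RAC (0.22 ± 0.06, adjusted p = 0.0483), and Tgfb2, a TGF-beta ligand (0.18 ± 0.05, adjusted p = 0.0489), rose by less. Leaving out any 1 library but HA 4 ended the call on Dock5 (adjusted p up to 0.12), and leaving out any 1 ended that on Tgfb2 (up to 0.119). Both were also lost with no filter (Dock5 0.102, Tgfb2 0.088) and with median-of-ratios scaling (0.052 and 0.0515). Igfbp3, a member of the same list, was listed at 0 in every library.

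**Figure D5:**
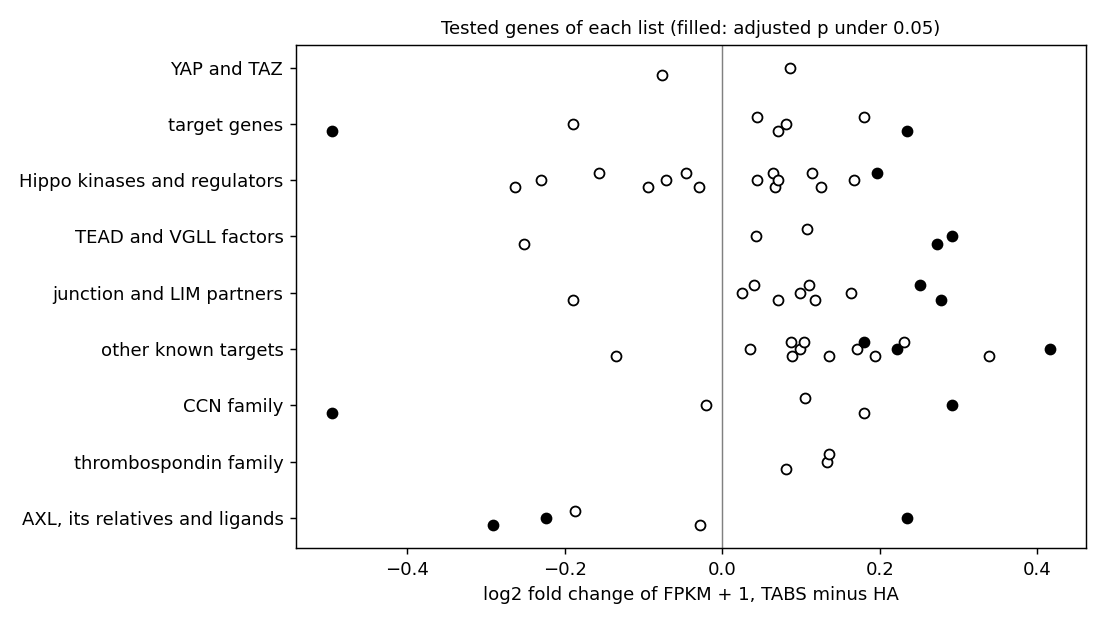
Log2 fold change of FPKM + 1 (TABS minus HA) of the tested genes in each list, where filled points passed at an adjusted p under 0.05 and genes in 2 lists are drawn in both. Among the other known targets the 3 filled points all lie above 0, whereas among the 7 tested targets followed here Ccn1 lies at -0.50 and Axl at 0.23.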

How the data were processed

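RNA of MC3T3-E1 cells was sequenced as paired reads of 150 bases from NEBNext Ultra libraries, made from TRIzol RNA with an integrity number above 7, per the labels' protocols. The deposited table holds 1 FPKM value per gene and library, made by the authors; fastp, STAR, DESeq2 and the build GRCm38 are named per the submitters' processing notes, with no roles or versions. The sources used here do not give the program that made FPKM or whether strand was used. Columns were matched to samples through library names, whose letters (H for TABS, L for HA) do not match the group names. No gene tests the scaffold labels, and a swap would reverse every rise and fall stated here.

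Symbols, coordinates and exon overlaps came from GENCODE M21 (GRCm38), and promoters from RefSeq (GRCm38.p6). limma 3.58.1 in R 4.3.3 was run on log2(FPKM + 1), a pseudocount of 1, for genes with at least 1 FPKM in at least 4 libraries, with variances that follow the level, two-sided, with no block. The script was tested on simulated data. The alternatives were a pseudocount of 0.1, no filter, a filter of 5 FPKM, TPM, median-of-ratios scaling, splines on GC content and length, the replicate number as a block, and leaving out each library. All 10 chosen genes are named, and from each list up to 4 genes that passed, by smallest adjusted p, or the nearest; a gene taken by this rule is not reported here. The genes and lists were chosen with earlier results of these data known.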

Additional observations from a re-analysis of the deposited data

Results flagged for a closer look

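Groups of 4 libraries were searched for a value far from the other 3, in 44 groups of the genes named here, and 4 such values were found. Chance alone flags about 1 group in 20. Wwtr1 was 14.5 FPKM in TABS 1 against 38.5 to 39.5 in the other TABS libraries. Lats2 was 3.50 FPKM in TABS 3 against at least 4.48. Nt5e was 5.79 FPKM in HA 4 against 4.65 to 4.72, and Pros1 was 15.5 FPKM in HA 4 against 14.2 to 14.4. The causes were not tested.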

How the results depend on the processing

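Ccn1 and Mertk passed under all 16 alternatives, and Yap1, Wwtr1, Lats2, Ajuba and Thbs1 under none. Blocking on replicate number left 136 genes higher and 94 lower, and 0 targets higher, since Axl no longer passed (adjusted p = 0.0695). With GC and length correction and the block these were 152, 153 and 0, with 2 targets lower. Taok3, Tead2, Amotl1, Nt5e, Dock5, Tgfb2, Ccn5 and Pros1 also lost their calls with the block, and Tead4 with GC and length correction and the block (adjusted p = 0.115). The labels do not say that the numbers pair the samples. Deviations of same-numbered libraries correlated from -0.104 to 0.105, and those of differently numbered libraries from -0.164 to 0.177. Since deviations from the group mean offset each other within a group, these values cannot settle whether the numbers mark a shared batch. The targets lower were 2 with a filter of 5 FPKM or GC and length correction, and the targets higher 2 after rescaling to TPM, with 915 genes higher in all. With no filter 195 genes were lower. With 1 library left out, 247 to 429 genes were higher and 168 to 289 lower (over 1.5 times fewer in 1 or both directions without any library but HA 1), and 1 target was higher and 1 lower each time. The fold change of Wwtr1 ran from -0.20 to 0.26, turned without TABS 1. That of Lats2 ran from -0.040 to 0.12, turned without HA 1, and was -0.015 with GC and length correction, without or with the block.

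Relative to the coactivators, 11 genes were higher and 19 lower. This became 28 and 37 with a pseudocount of 0.1, 20 and 35 with the block, and 24 and 38 with GC and length correction and the block. The genes lower were 12 with no filter and 11 with GC and length correction. Relative to Yap1 alone they were 48 and 255, with 1 target lower, and Lats2 (-0.043), Ajuba (-0.015) and Thbs1 (-0.0061) turned. With 1 library left out, 2 to 41 genes were higher and 8 to 2346 lower, with 0 to 2 targets lower, the highest of each without TABS 1. Lats2 ran from -0.17 to 0.18, turned without TABS 1, HA 1 or HA 4, and was -0.020 with GC and length correction, without or with the block. Turned without TABS 1 were Ccn2 (-0.0058 to 0.25), Ajuba (-0.12 to 0.14) and Thbs1 (-0.072 to 0.14). The causes were not tested.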
